A study of Rattus norvegicus with 20 samples.

Results

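Oxidative phosphorylation is described here through 101 of the 34681 rows of a rat kidney expression table, 87 genes of the nuclear genome and 14 rows of the mitochondrial genome. The nuclear members were all rows with a symbol starting with Nduf, Uqcr, Cox4 to Cox8 or Atp5, together with Sdha, Sdhb, Sdhc and Sdhd, that reached a normalized read count of 10 in at least 3 libraries. Of 89 rows that matched by symbol, 87 passed, and Cox6c-ps1 and Cox8c did not. They comprised 34 genes of complex I, 4 of complex II, 8 of complex III, 17 of complex IV (with Ndufa4 and its paralogue Ndufa4l2), 16 of complex V, 7 assembly factors of complex I and Atp5if1, the inhibitor of ATP synthase. All 14 mitochondrial rows passed.

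The respiratory chain passes electrons from NADH (complex I) and succinate (complex II) through complex III to oxygen at complex IV, and complex V, the ATP synthase, uses the resulting proton gradient to make ATP. Complex II is encoded entirely in the nucleus, whereas complexes I, III, IV and V combine nuclear subunits with subunits encoded by mitochondrial DNA, so their assembly needs transcripts of both genomes. In the kidney, the proximal tubule and the thick ascending limb are rich in mitochondria because they drive active salt transport.

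The libraries were made from frozen kidney tissue of rats (Rattus norvegicus), and acute kidney injury following trauma is the subject of the series. The disease label put 20 libraries into Sham (n = 6), RM (n = 6), HS (n = 5) and RM-HS (n = 3). The labels do not spell out RM or HS, and they give no strain, sex, age, treatment or time. The design text counts 19 libraries with 5 of RM, and all 6 labelled RM were used. No source states that the libraries came from separate animals, so p-values cover only how far these samples vary among themselves, part of which may be technical. The libraries held 45047179 to 109940948 reads. Library names start with R or S, and no label says what the letter marks: all Sham and RM-HS libraries are R, RM has 1 R (RM 1) and 5 S, and HS has 3 R and 2 S. Markers of the proximal tubule and thick ascending limb were present in every library, but the summed level of 7 early proximal tubule markers was 71631 to 136559 in Sham 2 to Sham 5, against 236640 and 237571 in Sham 1 and Sham 6 and 210928 to 395624 in the other groups. Values below are the authors' normalized read counts unless another unit is given. Differences are on the log2(value + 1) scale, given ± SE from 1 limma fit over the 20 libraries, and a member is said to have risen or fallen at a Benjamini-Hochberg adjusted p under 0.05 over all 15954 rows tested.

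Nuclear genes of oxidative phosphorylation are known targets of NRF1 and of GABP, a factor of the ETS family, and both kinds of motif were more frequent upstream of the members than upstream of all genes. RefSeq (build GRCr8) gave an upstream window for 77 of the 87 nuclear members, and the 250 bases before the start were searched on both strands. CCGGAAG, the core of ETS family sites, lay in the window of 22 members (28.6%), against 7.74% of 27457 windows in all and 9.52% of those of protein coding genes. The palindromic NRF1 consensus, seen in capitals in the shorter sequences printed here, lay in the windows of 6 members (7.79%), against 0.849% and 1.03%. The YY1 motif AAGATGGCG was in 1 window (1.30% against 0.736% of all), the ERR family motif CAAGGTCA in 2 (2.60% against 1.30%), the HIF motif ACGTG in 18 (23.4% against 16.9%), the SP family motif GGGCGG in 28 (36.4% against 32.4%) and CCAAT, the NFY motif, in 24 (31.2% against 34.3%). No motif contains another, and a match is a description of letters and not of a bound site.

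The windows of the members that fell most in HS in complexes I, II and III each held 1 ETS match, shown in capitals, on the strand of the gene or its complement. They are printed 5′ to 3′ on the strand of the gene, all of which lie on the minus strand, at chr19:41477292-41477541 for Ndufb7, chr8:59850642-59850891 for Sdhd and chr10:38089979-38090228 for Uqcrq (GRCr8). The windows of Cox6b1 and Atp5mc1, which fell most in complexes IV and V among members with a mean of at least 50 in Sham, held no match to that motif or to the NRF1 motif.
Ndufb7: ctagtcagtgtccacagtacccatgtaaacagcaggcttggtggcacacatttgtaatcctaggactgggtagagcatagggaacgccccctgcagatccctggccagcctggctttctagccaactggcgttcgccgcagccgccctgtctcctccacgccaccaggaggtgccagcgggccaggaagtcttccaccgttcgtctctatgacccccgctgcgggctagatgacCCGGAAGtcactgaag
Sdhd: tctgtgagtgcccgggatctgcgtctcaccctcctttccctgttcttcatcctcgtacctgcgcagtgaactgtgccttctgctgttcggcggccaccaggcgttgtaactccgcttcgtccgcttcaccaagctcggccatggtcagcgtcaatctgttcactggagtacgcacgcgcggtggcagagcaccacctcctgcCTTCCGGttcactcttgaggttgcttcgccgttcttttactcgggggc
Uqcrq: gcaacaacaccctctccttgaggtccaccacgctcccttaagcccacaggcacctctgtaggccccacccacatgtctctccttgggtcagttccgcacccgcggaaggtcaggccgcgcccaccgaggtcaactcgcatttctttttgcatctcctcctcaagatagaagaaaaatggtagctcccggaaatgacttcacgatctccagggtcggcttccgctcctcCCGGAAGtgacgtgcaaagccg

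The NRF1 matches, also in capitals, are shown with 30 bases of context, because they are the rarest of the motifs shared by several members and fall in an assembly factor pair as well as in ATP synthase and complex I subunits. In Ndufa11 only the first copy is in capitals, and another copy overlaps it and runs into the small letters that follow.
Atp5po (chr11:44657523-44657552, minus strand): acgccgacgcGCGCATGCGCtctggcatca
Atp5me (chr14:1464774-1464803, plus strand): ttgcgctacgGCGCATGCGCtttcctggct
Ndufaf5 (chr3:147961582-147961611, plus strand): gtcgtagtccctttgGCGCATGCGCacaat
Ndufaf4 (chr5:43401627-43401656, plus strand): gcagtagtccGCGCATGCGCccctgtggaa
Atp5mc2 (chr7:135678255-135678284, minus strand): ggctctagtcGCGCATGCGCagagccttct
Ndufa11 (chr9:1637507-1637536, plus strand): cctgcgctgtGCGCATGCGCatgcgcacag

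In HS, the nuclear genes of oxidative phosphorylation were lower than in Sham across all 5 complexes. Of 87 nuclear members, 63 fell and 1 rose, against 23.2% of all tested rows that fell and 23.3% that rose (46.4% called in either direction). The median difference of the members was -0.33, against -0.03 over all rows, and 84 of the 87 differences were negative. Complex I changed in most of its subunits, with 30 of 34 lower and a median of -0.38. In complex III 6 of 8 fell (median -0.38), in complex IV 12 of 17 (median -0.29), in complex II 3 of 4 (median -0.25) and in complex V 10 of 16 (median -0.25). In 27 members every HS library lay below every Sham library, against 12.2% of all rows.

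Ndufb7, an accessory subunit in the membrane arm of complex I (chr19:24701067-24705405, rn6), had the largest fall of its complex. It stood at 7900, 7168, 9493, 7574 and 7704 in the HS libraries and at 9287 to 14356 (median 12804) in Sham. The groups overlapped only through Sham 1, the lowest Sham library, and HS 3, the highest of HS, and the difference was -0.64 ± 0.11 (adjusted p = 7.4e-05). Ndufs3, a core subunit of the peripheral arm (chr3:79721686-79728863), was at 6202, 5315, 5051, 5223 and 5887 in HS, below all Sham libraries (7173 to 8783, median 8269), a difference of -0.56 ± 0.08 (adjusted p = 1.2e-05). The 4 complex I genes that did not pass were Ndufa1 (-0.09), Ndufs1, the largest core subunit (-0.08), Ndufa5 (-0.15) and Ndufa10 (-0.22). A row with a like symbol, Ndufa10l1, is also a member, and whether reads of the pair were split between them was not tested.

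Complex II, succinate dehydrogenase, was uneven in HS. Sdhd, a membrane anchor (chr8:55028103-55037654), was at 30572, 25820, 24842, 26668 and 29359, below all 6 Sham libraries (33616 to 40964, median 36955), and fell by 0.43 (SE 0.08, adjusted p = 0.00035). The other anchor, Sdhc, fell by 0.29 and the iron-sulfur subunit Sdhb by 0.21 (SE 0.09 and 0.07, adjusted p = 0.0091 and 0.019). Sdhb did not pass without HS 3 (-0.18) or without HS 4 (-0.19). The flavoprotein Sdha, which holds the catalytic site, was at 18004 to 21067 in HS and 16705 to 21863 in Sham, with a difference of -0.02 ± 0.09 (adjusted p = 0.85).

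In complex III, Uqcrq and Uqcrh, both small accessory subunits, were lower by -0.49 ± 0.13 and -0.46 ± 0.08 (adjusted p = 0.0057 and 0.00019). Uqcrq (chr10:38779132-38782437) was at 15050, 16448, 19749, 15551 and 17479 in HS against 17141 to 28804 in Sham, so that HS 3 and HS 5 reached into the range of Sham 1. Uqcrh lay between 22610 and 24346 in HS and between 27446 and 36381 in Sham, with no overlap. Uqcrc2, a core protein of this complex (-0.07), and Uqcrfs1, the Rieske iron-sulfur protein (-0.21), did not pass.

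In complex IV, cytochrome c oxidase, the fall was largest among well expressed subunits for Cox6b1, which joins the monomers of the enzyme (chr1:89075987-89084798). It stood at 10756, 10477, 13473, 11294 and 10926 in HS and at 12783 to 17207 in Sham (median 15862), a difference of -0.44 ± 0.10 (adjusted p = 0.0017). HS 3 was higher than the other HS libraries and overlapped Sham 1. Cox4i1, the regulatory subunit that binds ATP, fell by 0.27 (SE 0.08) and Cox8a by 0.29 (SE 0.10), adjusted p = 0.0098 and 0.019, and Cox8a did not pass without HS 2 (-0.26). Cox6a1, Cox6c and Cox7c had differences of -0.10, -0.08 and -0.03 and did not pass.

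In complex V, Atp5mc1, 1 of 3 genes for subunit c of the proton-driven ring (chr10:83895947-83898545), was at 6688, 6377, 6788, 6608 and 7197 in HS and 8022 to 11038 in Sham (median 9742). The groups did not overlap, and the difference was -0.52 ± 0.09 (adjusted p = 0.00012). Atp5mc2 and Atp5mc3, which encode the same mature protein with other import sequences, fell by 0.37 and 0.33 (SE 0.08 and 0.09, adjusted p = 0.00087 and 0.0051). The catalytic F1 subunits Atp5f1a and Atp5f1b had differences of -0.14 and -0.20 and did not pass, and Atp5pb, of the peripheral stalk, had -0.09. Atp5if1, which blocks ATP hydrolysis by the synthase when the gradient fails, stood at 20059, 21485, 25287, 22542 and 21758 in HS against 16409 to 23563 in Sham, a difference of 0.01 ± 0.09 (adjusted p = 0.93).

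**Figure D1:**
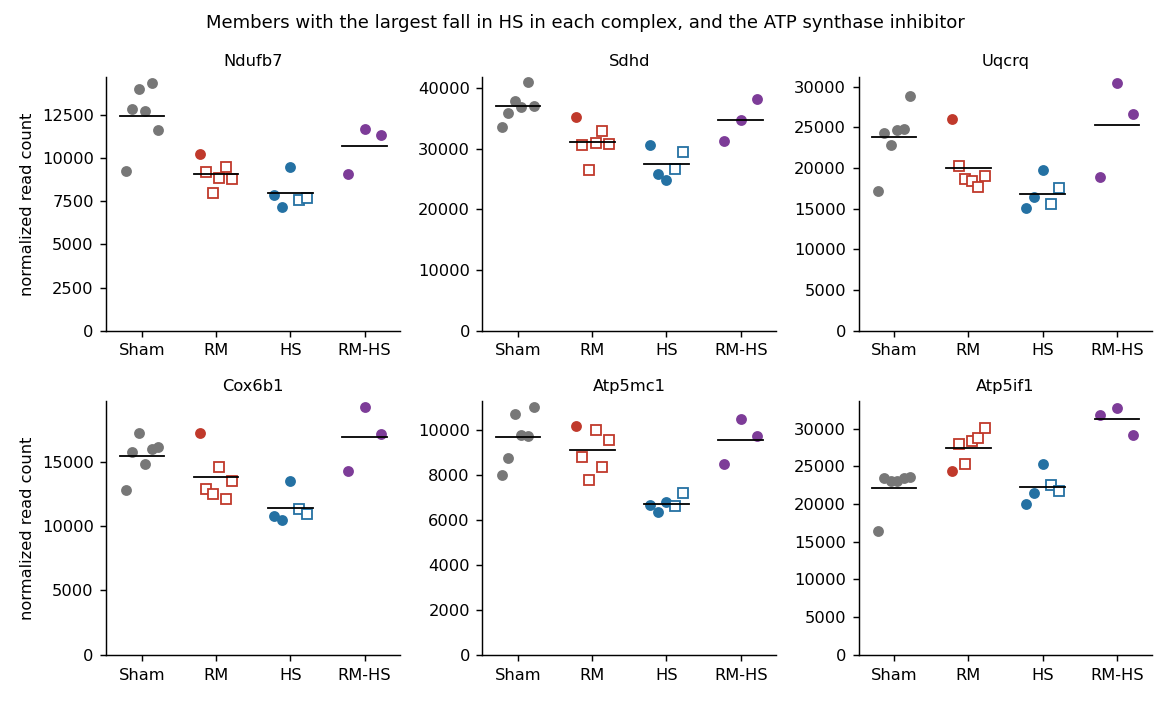
Normalized read counts (linear axis from 0) of the member with the largest fall in HS in each complex (mean of at least 50 in Sham) and of Atp5if1, 1 point per library, filled circles for library names starting with R and open squares for S, with a bar at each group mean. Ndufb7, Sdhd, Uqcrq, Cox6b1 and Atp5mc1 are lowest in HS and higher in RM-HS, whereas Atp5if1 is higher in RM (24440 to 30044) and RM-HS (29131 to 32783) than in any Sham library.

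The falls of Ndufb7, Ndufs3, Sdhd, Uqcrh, Atp5mc1, Atp5mc2 and Ndufaf8 in HS passed under every alternative tried, including all scalings, the libraries named R alone and the reduced sets of controls. Over all 87 nuclear members, 37 fell in HS against Sham among the libraries named R alone (median -0.33) and 26 with Sham 1 and Sham 6 as the only controls (median -0.29), where 16.3% and 11.1% of all rows fell. In HS the 5 thick ascending limb markers were all lower, with summed levels of 71174 to 123185 against 174307 to 293084 in Sham. All 5 principal cell markers and 3 of 4 intercalated cell markers were lower too. Of the early proximal tubule markers 5 of 7 were higher, whereas of 4 late proximal tubule markers 1 was higher and 2 were lower. In bulk tissue, fewer cells of a type and less RNA per cell cannot be told apart, and the part of cell composition in the members' differences was not tested.

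In RM, fewer nuclear members differed from Sham, and complex I carried most of the falls. Of 87 members, 25 fell and 4 rose, against 26.8% and 26.2% of all rows (53% called in either direction), so the share that fell was close to the background and the share that rose (4.60%) was below it. The median difference was -0.16, against -0.04 over all rows. Complex I held 15 of the falls among its 34 genes, complex V 3 of 16, complex IV 2 of 17, and complexes II and III 1 each. Complex I assembly factors fell in 3 of 7. In the other direction, Ndufa1, Sdha, Ndufaf4 and Atp5if1 rose. Every RM library lay below every Sham library in 4 members and above in 1, against 12.4% and 13.3% of all rows.

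The lowest and highest values of Ndufb7 in RM were 7979 and 10240 (median 9047), a difference from Sham of -0.45 ± 0.10 (adjusted p = 0.0011), again with an overlap through Sham 1. Ndufs3 was at 5465 to 6880 in RM (median 6246), below all Sham libraries, with a difference of -0.39 ± 0.07 (adjusted p = 0.00016). Sdhd and Uqcrh fell by 0.25 and 0.27 (SE 0.08 each, adjusted p = 0.013 and 0.0082) and Atp5f1d, the delta subunit of the central stalk, by 0.25 (SE 0.10, adjusted p = 0.046). The call of Atp5f1d was lost on leaving out almost any library, with differences of -0.26 to -0.21.

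Atp5if1 (chr5:150719570-150723287) was at 24440 to 30044 in RM (median 28138) and at 16409 to 23563 in Sham (median 23243), with no overlap, and rose by 0.32 ± 0.09 (adjusted p = 0.0059). Ndufa1, a small membrane subunit of complex I on the X chromosome (chrX:123803125-123806760), rose by 0.27 ± 0.08 (adjusted p = 0.0059), from 11200 to 14299 in Sham to 13924 to 17527 in RM. Sdha rose by 0.24 ± 0.08 (adjusted p = 0.023), a call that was lost without Sham 2 (0.19), RM 4 (0.22) or RM 5 (0.22). Thus within complex II the catalytic subunit was higher in RM while an anchor was lower. Relative to the reads outside the mitochondrial genome, Ndufa1 and Sdha had differences of -0.04 and -0.07 and Atp5if1 0.02, and none of these passed.

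The RM result moved with the library names. RM 1, the only RM library named R, had a median difference of the nuclear members from the Sham mean of 0.02, inside the Sham range of -0.18 to 0.11, whereas the 5 named S had -0.32 to -0.11. With the letter as a covariate 2 members passed in RM against Sham, where 28.5% of all rows did. Among libraries named R alone, where 4.80% of all rows passed in limma, no member passed in limma or edgeR, with 3 at an unadjusted p under 0.05 in limma, but RM then had 1 library, which is assumed to vary like the other groups. The summed thick ascending limb markers were also higher in RM 1 (197995) than in the other RM libraries (87519 to 126033). Letter and condition cannot be told apart in RM, beyond that 1 library.

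In RM-HS, the nuclear members stood near the Sham level on the authors' scale. Of 87, 10 rose and 3 fell, against 21.3% and 21.0% of all rows (42.3% called in either direction), with a median difference of 0.03. Scaled by reads outside the mitochondrial genome the median was -0.34, by all reads -0.29 and by upper quartile -0.11. Those that rose included Ndufa1 of complex I, Sdha, Uqcrb of complex III, Cox6a1, Cox6c and Cox7c of complex IV, Atp5mf and Atp5pb of complex V, and Atp5if1. Ndufs3 and Ndufb10 of complex I and the assembly factor Ndufaf1 fell. Groups did not overlap in 8 members above and 4 below Sham, against 16.5% and 16.1% of all rows.

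Atp5if1 was at 31872, 32783 and 29131 in RM-HS, above all Sham and all HS libraries, a rise over Sham of 0.51 ± 0.11 (adjusted p = 0.0012). Ndufa1 was at 15487, 18438 and 19123, also above all Sham libraries, and rose by 0.41 ± 0.09 (adjusted p = 0.0015). Sdha was at 26342, 22198 and 28283, above every Sham library, and rose by 0.39 ± 0.10 (adjusted p = 0.0055). Under the alternatives, each library left out included, the calls of Atp5if1, Ndufa1 and Sdha were lost in 2, 2 and 4 cases. Their signs did not reverse, but the highest adjusted p over all alternatives was 0.32, 0.72 and 0.89. Scaled by reads outside the mitochondrial genome, every member called in RM-HS against Sham was lower, so none of these rises passed. Cox6a1, at 60525, 75227 and 67865, rose by 0.35 ± 0.11 (adjusted p = 0.011) with an overlap through Sham 6, and without RM-HS 2 it did not pass (0.28). Uqcrb rose by 0.29 ± 0.10 (adjusted p = 0.023) and did not pass without RM-HS 2 (0.28) or RM-HS 3 (0.25). Ndufs3, at 6117, 6777 and 6974, lay below all Sham libraries here too (-0.30 ± 0.09, adjusted p = 0.012) but did not pass without RM-HS 1 (-0.24).

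On the authors' scale, the contrast of RM-HS with HS called the most nuclear members among the injured groups. Of 87 nuclear members 59 were higher in RM-HS and 2 lower, against 10% and 10.6% of all rows (20.6% called in either direction). The median difference was 0.37, against 0.01 over all rows, and 84 differences were positive. Scaled by reads outside the mitochondrial genome the median was 0.11 and 3 members were called. In complex II all 4 genes were higher, in complex III 6 of 8, in complex V 12 of 16, in complex I 24 of 34 and in complex IV 11 of 17. All 3 RM-HS libraries lay above all 5 HS libraries in 57 members, against 12.8% of all rows. The same 48 genes counted among the 63 that fell in HS against Sham and among these 59, but both comparisons use the HS libraries, so this overlap is a description.

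Uqcrb, which binds ubiquinone (chr7:71264512-71269869), was at 6366, 6855 and 7122 in RM-HS and at 5185, 4265, 4471, 3970 and 4891 in HS, a difference of 0.58 ± 0.10 (adjusted p = 0.00073). Cox6b1 was at 14284, 19218 and 17105 in RM-HS, above all HS libraries, with a difference of 0.56 ± 0.12 (adjusted p = 0.0038). Atp5mc1, at 8486, 10478 and 9754, was higher by 0.50 ± 0.11 (adjusted p = 0.0033), and Ndufa1 by 0.50 ± 0.10 (adjusted p = 0.0014). RM-HS 1 was the lowest of its group in these genes, and its median over the nuclear members was -0.13 from the Sham mean, against 0.13 and 0.10 for RM-HS 2 and RM-HS 3. Without RM-HS 2 the number of members called was 32, and without RM-HS 3 it was 34, where 2503 and 2015 of the 15954 rows were called. Among libraries named R alone 12 passed, with a median of 0.35.

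**Figure D2:**
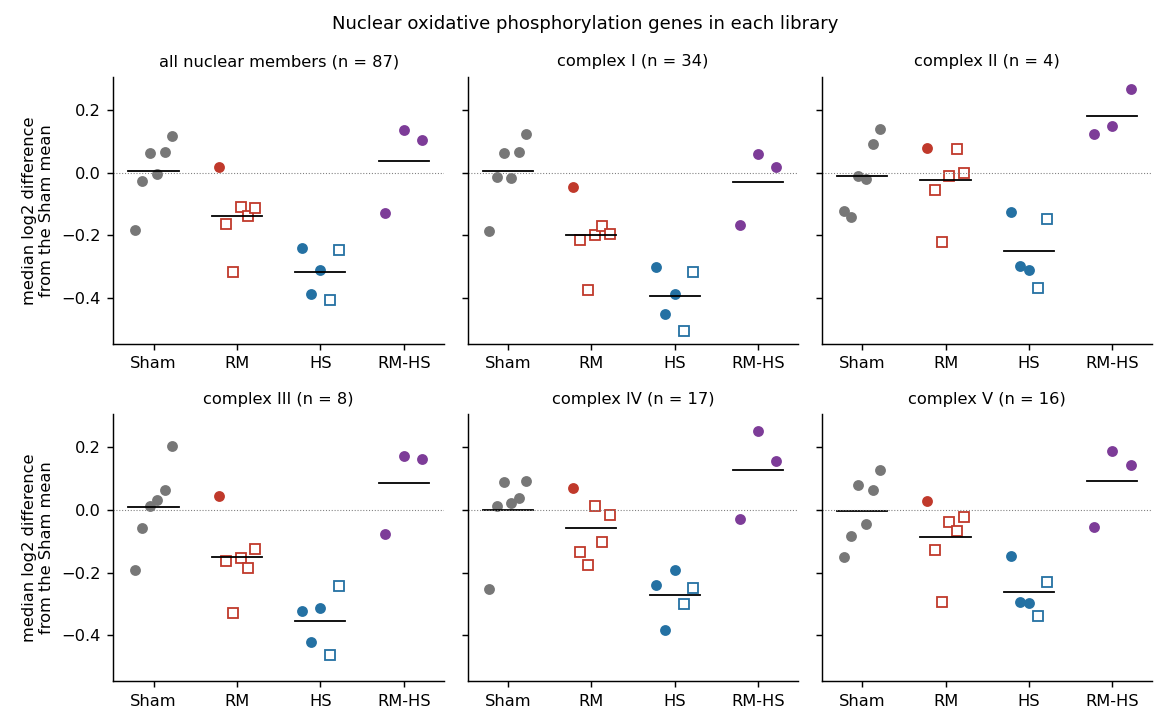
Median log2 difference from the Sham mean over the nuclear members (n = 87) and over each complex, 1 point per library, filled circles for library names starting with R and open squares for S, with a bar at each group mean. HS libraries lie between -0.41 and -0.24 over all members, below the Sham range of -0.18 to 0.11, and RM-HS libraries between -0.13 and 0.13.

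RM differed less from HS and from RM-HS. Against HS, 18 members were higher in RM and 1 lower, with a median of 0.19, where 11.1% and 12.6% of all rows were called (23.8% in either direction). All RM libraries lay above all HS libraries in 10 members and below in 1, against 6.04% and 8.21% of all rows. Leaving out HS 2 gave 7 members, where 3026 of the 15954 rows were called. Leaving out RM 3 gave 31, where 3525 rows were called. Those higher in RM included Atp5mc1 (0.43), Ndufa1 (0.36), Cox7a2 (0.31), Atp5if1 (0.31), Sdha (0.26) and Sdhb (0.26). Between RM-HS and RM only Ndufaf4 passed, lower in RM-HS, where 1.08% of all rows were called. The median of the members was 0.19, 81 of 87 differences were positive and 28 had an unadjusted p under 0.05 in limma, edgeR called 1 and DESeq2 3. With the letter as a covariate the median was 0.12, and among libraries named R alone 0.06, with 1 member at an unadjusted p under 0.05 in limma. All RM-HS libraries lay above all RM libraries in 11 members and below in 1, against 4.32% and 3.44% of all rows (7.76% in either direction).

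The RM-HS libraries were not lower by the sum of the RM and HS differences. The departure from additivity, the RM-HS mean with the Sham mean added and those of RM and HS subtracted, was positive in 86 of 87 nuclear members, with a median of 0.54 against 0.02 over all rows. It passed in 61 upward and 1 downward, against 14.9% and 16.8% of all rows (31.7% in either direction), and edgeR and DESeq2 called 57 and 64. Complex I had 28 of 34, complex II 3 of 4, complex III 7 of 8, complex IV 9 of 17 and complex V 12 of 16. Ndufb7 departed by 0.87 ± 0.16 (adjusted p = 0.000605) and Uqcrq by 0.81 ± 0.21 (adjusted p = 0.0056). With the letter as a covariate 1 member passed (median 0.42, 3.87% of all rows called). Among libraries named R alone none passed in limma or edgeR, with 12 at an unadjusted p under 0.05 in limma and a median of 0.37. With Sham 1 and Sham 6 as the only controls 39 were higher and 1 lower, where 19.8% of all rows were called in either direction.

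**Figure D3:**
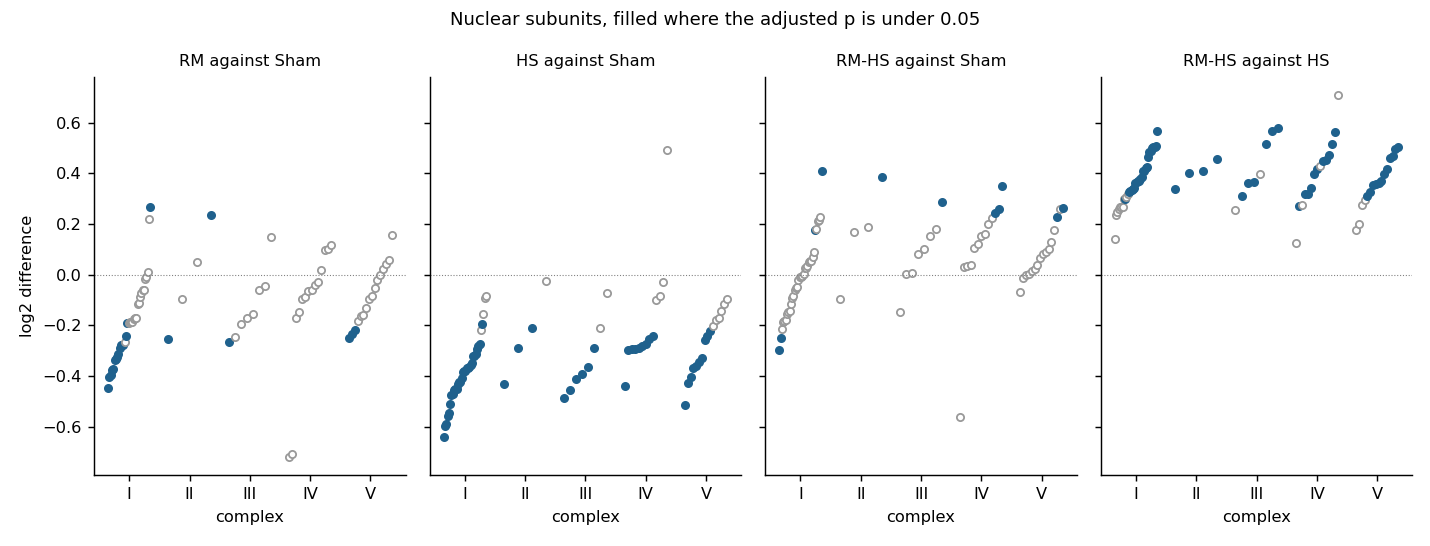
Log2 difference of each nuclear subunit in 4 comparisons, 1 point per gene ordered by size within complexes I to V, filled where the adjusted p was under 0.05. The points of HS against Sham lie below 0 with 1 exception, those of RM-HS against HS lie above 0, and subunits with a difference beyond 0.8 in either direction (Cox4i2, Cox6a2, Cox6b2, Cox8b and Ndufa4l2, all of low level) are left out where that applies.

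How far the members fell depended on the scale. The authors' values outside the mitochondrial genome, summed per library in units of 1e6, came to 36.1 to 39.9 in Sham, 44.9 to 48.4 in RM, 39.5 to 43.6 in HS and 47.6 to 50.2 in RM-HS. As a share of the reads outside the mitochondrial genome, the 87 nuclear members took 5.17% ± 0.40 in Sham (SD, n = 6), 3.97% ± 0.29 in RM (n = 6), 3.97% ± 0.24 in HS (n = 5) and 4.31% ± 0.22 in RM-HS (n = 3). The lowest Sham library (4.53%) was above the highest of RM (4.48%), HS (4.21%) and RM-HS (4.50%). When values were divided by those reads instead of the authors' factors, the median over all rows became -0.34 in RM, -0.14 in HS and -0.39 in RM-HS against Sham, a shift of -0.30, -0.11 and -0.36. The members called were then 73 in HS, 78 in RM and 51 in RM-HS against Sham, all of them lower, where 28.3%, 43.8% and 42% of all rows were lower. In RM-HS against HS 3 were called (1 higher and 2 lower), where 28.1% of all rows were. Relative to the median of all rows, the members' median changed little between the scalings, from -0.30 to -0.30 in HS, -0.12 to -0.13 in RM, 0.06 to 0.05 in RM-HS, and 0.36 to 0.35 in RM-HS against HS. A scaling divides all rows of a library by the same factor, so this near equality follows from arithmetic. It is not a test of the result.

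**Figure D4:**
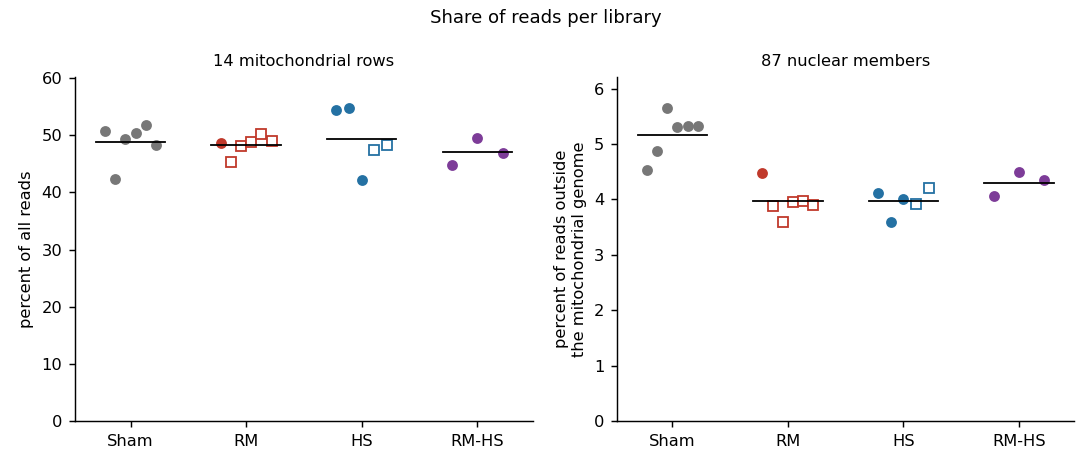
Share of all reads on the 14 mitochondrial rows (left) and share of the reads outside the mitochondrial genome on the 87 nuclear members (right), in percent from 0, 1 point per library, filled circles for names starting with R and open squares for S, with a bar at each group mean. The mitochondrial share overlaps among the 4 groups, whereas the nuclear share is 4.53% to 5.64% in Sham and at most 4.50% in the other libraries.

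Among the 7 assembly factors of complex I, Ndufaf4 and Ndufaf1 had patterns of their own, while the median of the list was -0.21 in HS, -0.22 in RM and -0.18 in RM-HS. Ndufaf4, a factor of the early assembly modules, was at 1687, 1698, 986, 1275 and 1420 in HS and 1212 to 1870 in RM (median 1576), against 942 to 1223 in Sham (median 990) and 948, 1052 and 973 in RM-HS. It rose in HS by 0.41 ± 0.13 (adjusted p = 0.015), which was lost without HS 2 (0.33), and in RM by 0.58 ± 0.13 (adjusted p = 0.00071). It was lower in RM-HS than in HS (-0.48 ± 0.16, adjusted p = 0.035) and than in RM (-0.65), so that its departure from additivity was -1.06 ± 0.20 (adjusted p = 0.00068). Ndufaf1, a chaperone of the membrane arm, was at 309 to 423 in RM and 356, 342 and 393 in RM-HS, below all Sham libraries (488 to 620), with differences of -0.54 ± 0.09 and -0.58 ± 0.12 (adjusted p = 8.9e-05 and 0.00057). In HS it was at 455 to 560, a difference of -0.12 ± 0.10 (adjusted p = 0.33), and it was lower in RM than in HS (-0.42). Ndufaf8 fell in HS by 0.66 ± 0.12 and in RM by 0.38 ± 0.11 (adjusted p = 0.00013 and 0.0068).

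Isoforms of low level changed more than their abundant partners on the log scale, but from values near the filter. Cox4i2, the hypoxia-linked partner of Cox4i1, was at 15.8, 14.7, 15.3, 8.81 and 4.80 in HS against 27.4 to 51.5 in Sham, without overlap, a difference of -1.61 ± 0.39 (adjusted p = 0.0021). Ndufa4l2, the hypoxia-linked paralogue of Ndufa4, was at 0 to 28.3 in HS and 3.80 to 64.6 in RM against 23.2 to 55.3 in Sham, with differences of -2.46 ± 0.71 and -1.79 ± 0.67 (adjusted p = 0.0074 and 0.031). The highest RM value was that of RM 1, the library named R; with the letter as a covariate the RM difference was 0.52 and without Sham 1, Sham 3, Sham 6, RM 2, RM 5 or RM 6 it did not pass (-1.73 to -1.54). Cox8b, a heart and muscle form of subunit 8, fell in HS by 1.77 (SE 0.56, adjusted p = 0.014), and Cox6b2, the testis form of subunit 6b, fell by 2.25 in RM (SE 0.72, adjusted p = 0.013), from 25.7 to 103 in Sham to 0 to 52.9. Cox6a2, the muscle form of subunit 6a, was at 0 to 54.3 in all libraries and did not pass. Among abundant members of the same complex, the liver-type subunit Cox7a2 and the supercomplex factor Cox7a2l fell in HS by 0.29 each (SE 0.09 and 0.07, adjusted p = 0.010 and 0.0023). Ndufa4 fell in HS by 0.24 (SE 0.09, adjusted p = 0.040), and leaving out any of Sham 2 to Sham 6, HS 2, HS 3 or HS 4 ended that call (-0.25 to -0.21).

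Among the nuclear members, those of higher level tended to the less negative difference. Across the 87 genes the correlation of the difference with the log2 mean level was 0.67 in RM, 0.51 in HS and 0.56 in RM-HS against Sham, and over all 15954 rows it was 0.18 to 0.21. The 87 genes include isoforms of low level with the largest falls, such as Cox6b2 (-2.25 in RM) and Ndufa4l2 (-2.46 in HS). Cox6a2, also of low level, went the other way in RM-HS (0.93). How much these few genes weigh in the correlation was not tested. These points share libraries and the Sham values, genes are not independent replicates, and the correlation is given as a description.

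The mitochondrial genome took about the same share of reads in all groups. Its 14 rows held 48.8% ± 3.4 of reads in Sham (SD, n = 6), 48.3% ± 1.7 in RM (n = 6), 49.4% ± 5.2 in HS (n = 5) and 47.1% ± 2.4 in RM-HS (n = 3). The ranges of the groups overlapped, and all libraries lay between 42.2% and 54.7%. Reads on the mitochondrial genome per read on the nuclear members were 18.7 ± 2.7 in Sham, 23.7 ± 2.0 in RM, 25.2 ± 6.1 in HS and 20.7 ± 1.0 in RM-HS (SD, same n). The ratio was 15.1 to 22.8 in Sham and 18.2 to 33.6 in HS, so that these groups overlapped, and HS 1 and HS 2 (29.0 and 33.6) stood above all others.

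The table gives no gene name for the 14 mitochondrial rows, so they are named by their position in rn6 (chrM). They overlap one another, the file gives no strand, and how reads on shared bases were assigned to a row is not known. Rows on the same bases did not have like counts. The row at chrM:5323-8066 lies inside chrM:5009-15279, with a median value per kb of 1215 against 3243520. The row at chrM:5009-15279 carried 77.2% to 87.6% of the mitochondrial reads (median 85.2%), and 8 rows held under 0.1% in every library. In RM 3 rows rose and 5 fell, in HS 2 rose, in RM-HS 2 rose and 1 fell against Sham, and in RM-HS against HS 1 was higher and 2 lower. The share of the 14 rows called was 57.1% in RM, close to the 53% of all rows, and 14.3% in HS and 21.4% in RM-HS, below the 46.4% and 42.3% of all rows. No row passed between RM-HS and RM in limma, where 2 had an unadjusted p under 0.05, edgeR called none and DESeq2 1.

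The widest row was at 24799800 to 32654600 in Sham (median 31796600), 33030900 to 40718500 in RM and 33597400, 41348700 and 38881200 in RM-HS, so that RM and RM-HS lay above all Sham libraries. In HS it was at 41166200, 43433100, 25145200, 30394000 and 32125900, which overlaps the Sham range, with HS 1 and HS 2 above all Sham libraries. Differences were 0.32 in RM, 0.17 in HS and 0.34 in RM-HS, and none passed in limma, whose trend gives this highest row of the table an SE of 0.88 to 1.08. For RM, edgeR and DESeq2 gave adjusted p-values of 0.036 and 0.016 (0.016 to 0.99 over all alternatives). Scaled by reads outside the mitochondrial genome, the differences were 0.02, 0.07 and -0.03.

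The row at chrM:63-1022 rose in all 3 injured groups. It was at 65370 to 212062 in Sham (median 120778), 228232 to 385871 in RM, and 534261, 502227 and 354430 in RM-HS, with no overlap of RM or RM-HS with Sham. The differences were 1.49 ± 0.26 in RM and 1.99 ± 0.32 in RM-HS (adjusted p = 9.0e-05 and 7.2e-05). In HS it was at 181134, 401105, 192718, 194849 and 166169, where HS 2 stood apart, and the difference was 0.90 ± 0.28 (adjusted p = 0.011). Sham 3 and Sham 5 were the lowest libraries (65370 and 71544), and without them the HS difference was 0.53 and did not pass. The neighbouring row at chrM:1104-3694 rose in RM by 0.58 ± 0.22 (adjusted p = 0.030) and no longer passed without Sham 2, Sham 4, Sham 6, RM 3, RM 5 or RM 6 (0.48 to 0.57) or with the reads outside the mitochondrial genome as scale (0.28).

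Rows of low level moved in other directions. The row at chrM:15417-16192 was at 1484, 1195, 908, 863 and 1073 in HS, above all Sham libraries (274 to 653), a rise of 1.30 ± 0.28 (adjusted p = 0.00083), and it was lower in RM-HS than in HS (-1.25 ± 0.34, adjusted p = 0.013). The row at chrM:12626-14061 was at 2184 to 4477 in RM and 2271, 3943 and 1736 in RM-HS against 3566 to 8847 in Sham, with differences of -0.85 ± 0.28 and -1.23 ± 0.34 (adjusted p = 0.015 and 0.0071). Without RM-HS 3 the second of these did not pass (-0.97). The rows at chrM:2176-3760, chrM:3692-5318, chrM:5323-8066 and chrM:14131-15347 fell in RM by 0.80, 0.90, 0.69 and 0.62. The first pair were highest in Sham 3 and Sham 5, and without those libraries the first 3 had differences of -0.40, -0.35 and -0.51 and did not pass. With Sham 1 and Sham 6 as the only controls none of the 4 passed (-0.38 to -0.21). The row at chrM:1342-1448 rose in RM (2.50) and RM-HS (2.49) from 0 to 15.4 in Sham to at most 54.7, and the RM-HS call was lost without Sham 4, Sham 5, RM-HS 1 or RM-HS 3 (2.06 to 2.53). Sham 3 and Sham 5 also stood at 4003240 and 4316800 in the row at chrM:3765-4944, against at most 2742830 in every other library, and that row did not pass in any comparison. The remaining rows, at chrM:10019-11539, chrM:380-958 and chrM:15347-16313, did not pass in any comparison with Sham.

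**Figure D5:**
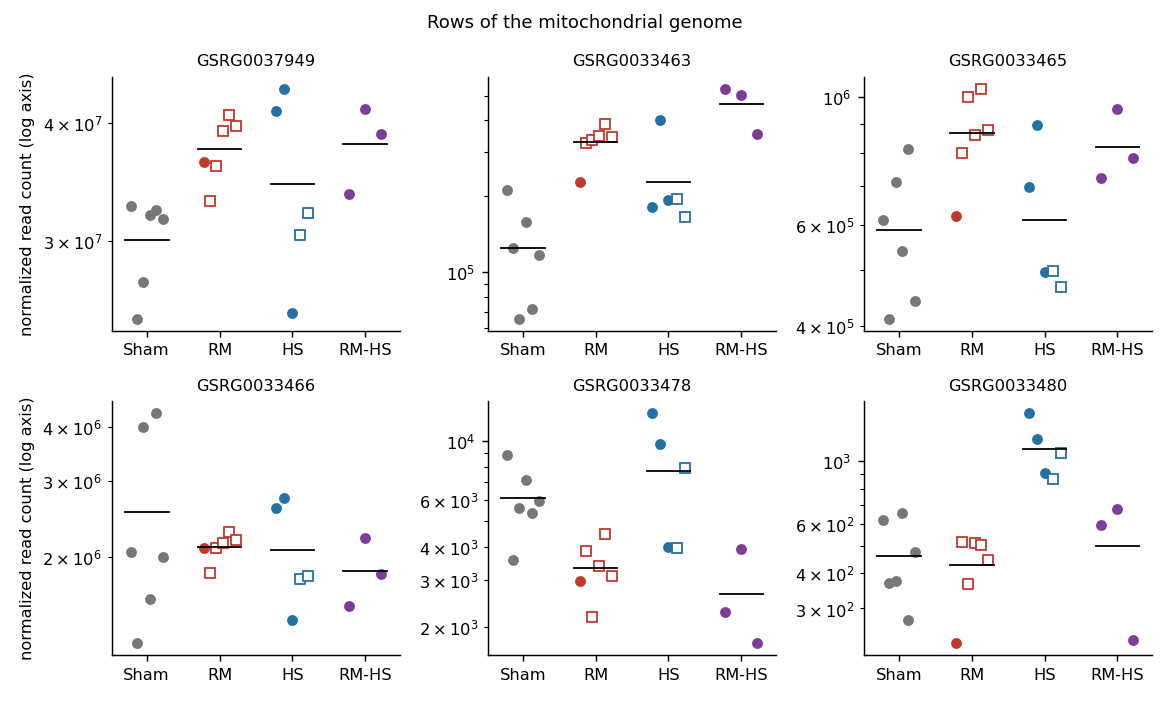
Normalized read counts on a log axis for 6 mitochondrial rows, given by the file's gene ID, 1 point per library, filled circles for names starting with R and open squares for S, with a bar at each group mean. GSRG0033463 (the row starting at base 63) is above all Sham libraries in RM and RM-HS, GSRG0033480 (starting at base 15417) is above them in HS, and GSRG0033466 (starting at base 3765) is highest in Sham 3 and Sham 5.

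The nuclear genes that serve the mitochondrial genome and the chain were counted in lists from outside the member rule. Of 69 mitochondrial ribosome genes, 54 fell and 3 rose in HS (median -0.36), 39 fell and 4 rose in RM (median -0.21) and 17 fell and 4 rose in RM-HS (median -0.14), and 19 were higher and 1 lower in RM-HS than in HS. The share that fell was 78.3% in HS and 56.5% in RM, against 23.2% and 26.8% of all rows, but 24.6% in RM-HS, close to the 21.0% of all rows. Mrpl16, of the large subunit, was at 7629 ± 700 in Sham, 5152 ± 330 in HS and 7367 ± 948 in RM-HS (SD, n = 6, 5 and 3). It fell in HS by 0.56 ± 0.09 and was higher in RM-HS than in HS by 0.51 ± 0.10 (adjusted p = 3.5e-05 and 0.0023). Of 39 other assembly factors 33 were tested, and 19 fell in HS, 19 in RM and 10 in RM-HS, with none rising, or 57.6%, 57.6% and 30.3% of those tested against 23.2%, 26.8% and 21.0% of all rows. Surf1, an assembly factor of complex IV, fell in HS and RM (-0.35 and -0.33) and had 0.03 in RM-HS.

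The list of mobile electron carriers and ATP export, tested in 15 of 16 genes, fell in 10 in HS, 7 in RM and 4 in RM-HS, and 1 rose in each, so that 73.3%, 53.3% and 33.3% were called against 46.4%, 53% and 42.3% of all rows. Those that fell in HS were all genes of ubiquinone synthesis or handling, with Coq7 at -0.97 and Coq9 at -0.60, whereas Coq10b rose by 0.83. Cytochrome c (Cycs) had 0.18 and did not pass. The 16 citrate cycle genes moved otherwise: 5 rose and 1 fell in RM, 1 rose and 3 fell in HS, and 7 rose in RM-HS, which is 37.5%, 25.0% and 43.8% called against 53%, 46.4% and 42.3% of all rows. Idh2, the mitochondrial NADP-dependent isocitrate dehydrogenase, fell in HS by 0.66 and in RM by 0.51 (adjusted p = 4.3e-05 and 0.00024), while Pdhb, of pyruvate dehydrogenase, fell in HS (-0.24) and rose in RM (0.92) and RM-HS (0.52).

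Of 12 transcriptional regulators of these genes, 6 rose and 3 fell in RM, and 5 rose and 2 fell in HS and in RM-HS, which is 75.0% called in RM and 58.3% in HS and RM-HS, against 53%, 46.4% and 42.3% of all rows. Pprc1, a coactivator related to PGC-1, rose by 2.19 ± 0.16 in RM, 1.18 ± 0.16 in HS and 1.93 ± 0.19 in RM-HS (adjusted p = 2.1e-09, 1.4e-05 and 4.3e-07). Esrra, the receptor ERR alpha, fell by 0.73 ± 0.11 in HS, 0.32 ± 0.10 in RM and 0.39 ± 0.13 in RM-HS (adjusted p = 2.9e-05, 0.016 and 0.020). The largest fall of the list was that of Esrrb, with means of 425 in Sham, 57.6 in RM, 80.2 in HS and 24.2 in RM-HS. Nrf1 rose in HS by 0.64 ± 0.14, and Gabpa, the DNA-binding subunit of GABP, by 0.61 ± 0.11 (adjusted p = 0.00089 and 0.00020). Gabpa was lower in RM-HS than in HS (-0.48 ± 0.14, adjusted p = 0.018). Mean levels in Sham, RM, HS and RM-HS were 360, 448, 558 and 479 for Nrf1. For Gabpa they were 1268, 1537, 1941 and 1382. Ppargc1a, which encodes PGC-1 alpha, fell in RM by 0.46 ± 0.19 (adjusted p = 0.044) and had -0.12 in HS and -0.45 in RM-HS. Of 29 tested genes of mitochondrial transcription and RNA handling, 7 fell and 5 rose in HS, 13 fell and 6 rose in RM, and 8 fell and 1 rose in RM-HS, which is 41.4%, 65.5% and 31% called against 46.4%, 53% and 42.3% of all rows. Tfam, the main transcription factor of mitochondrial DNA, had differences of 0.06, 0.05 and -0.07 in HS, RM and RM-HS and did not pass.

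Markers of nephron segments and of other cells moved with these groups. Summed thick ascending limb markers were 174307 to 293084 in Sham, 87519 to 197995 in RM, 71174 to 123185 in HS and 133444 to 158964 in RM-HS, so that the sums of the 3 RM-HS libraries lay above those of all 5 HS libraries and below those of all Sham libraries. Umod, the most abundant of its 5 markers, made up most of the sum (83298 on average in HS and 127903 in RM-HS). Between RM-HS and HS none of the 5 passed in limma, 2 differences were positive and 3 negative, and only Umod (0.66) had an unadjusted p under 0.05. Against Sham all 5 fell in RM and HS and 4 in RM-HS. Summed early proximal tubule markers were 228815 to 329629 in RM, 210928 to 277757 in HS and 233214 to 395624 in RM-HS. Sham 1 and Sham 6, at 236640 and 237571, lay inside all of these ranges, whereas Sham 2 to Sham 5 were at 71631 to 136559. Summed late proximal tubule markers were 86053 to 134399 in Sham, 71094 to 106520 in RM, 63065 to 89361 in HS and 74202 to 83086 in RM-HS. Of these 4 late markers 2 fell in each injured group, while 1 rose in RM, 1 in HS and 2 in RM-HS. Of 7 neutrophil and macrophage markers 4 rose in RM, 1 rose and 1 fell in HS, and 5 rose and 1 fell in RM-HS, with 3 higher in RM-HS than in HS (median 1.20). Their summed level was 2228 to 7095 in Sham, 6152 to 22192 in RM, 2647 to 9059 in HS and 8273 to 13323 in RM-HS. Of 5 podocyte markers 5 rose in RM, 4 in HS and 2 in RM-HS. Their summed level was 8133 to 10696 in RM, 7536 to 9491 in HS and 7839 to 8985 in RM-HS. The Sham libraries were uneven here too, with 7977 and 7712 in Sham 1 and Sham 6 against 1832 to 5012 in Sham 2 to Sham 5. Skeletal muscle markers, which would show muscle tissue, were near 0, with summed levels of at most 164 in every library (2 of 5 listed genes tested). Summed adipose markers were 908 to 2464 in Sham, 808 to 2710 in RM, 1035 to 1746 in HS and 1236 to 1447 in RM-HS. Of 2 adipose markers tested, 1 fell in each injured group. The part of these shifts in the members' differences was not tested.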

How the data were processed

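The deposited table holds normalized read counts of 34681 gene rows in 20 libraries. Per the submitters' processing notes and the file headers, the tools were FastQC 0.11.2, STAR 2.7.5a, SAMtools 1.0, Picard 1.119, featureCounts of Subread 1.5.0 and DESeq2, with the rn6 build, and no source used here gives their options. The authors' signal values are gene counts divided by a DESeq2 size factor per library. Every value was a whole multiple of 1 step per library (100% within 0.1 read), which recovered the reads.

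The test covered the 15954 rows that reached a value of 10 in 3 or more libraries. Differences come from limma 3.58.1 (R 4.3.3, trend option) on log2(value + 1) with 4 group means, and p-values were adjusted by Benjamini-Hochberg over those rows. A fold on this scale understates the change of low rows. edgeR 4.0.16 and DESeq2 1.42.0 were run on the recovered reads as alternatives. Members and lists were chosen with earlier results of these data known, and the departure from additivity was added after seeing them. The text names all mitochondrial rows, the largest rise and fall of each complex against Sham among subunits whose higher group averaged 50 or more, the same for the assembly factors, the isoform families, Atp5if1 and the complex II genes. Other genes named were chosen after their values were seen. The fit was tested on simulated data. Alternatives were other scalings, filters, offsets, tests, weights, sets of libraries and the name letter as a covariate, with each library left out in turn. Promoter windows come from RefSeq in build GRCr8 and gene coordinates from the deposited table in rn6, and the builds were not mixed.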

Additional observations from a re-analysis of the deposited data

Results flagged for a closer look

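In 15 of 141 groups of values examined, 1 library stood apart from the rest of its group, where chance flags about 1 in 20. RM-HS, with 3 libraries, was too small for this test and was not examined. In Sham these were Sham 1 for Ndufa1 (11199.9), Cox4i1 (27145) and Atp5if1 (16409), the lowest value each time, Sham 6 for Cox6b2 (25.7, lowest) and Uqcrb (6595, highest), and Sham 2 for the mitochondrial share of reads (42.4%, lowest). In RM they were RM 1 for Uqcrq (26032), Ndufa4l2 (64.6) and the row at chrM:15347-16313 (32088), and RM 3 for Uqcrb (4452) and Ndufa4 (56302), the latter pair lowest. In HS they were HS 2 for the row at chrM:63-1022 (401105), HS 3 for Cox6b1 (13473) and Cox6a1 (54735), and HS 1 for Cox8b (28.2), all highest.

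The difference of RM-HS from HS was not the same as that of RM from Sham in 23 of 45 named members, by the test of the departure from additivity at an adjusted p under 0.05 (limma), which 31.7% of all rows passed. Many of these members are named for their large differences from Sham. With the letter as a covariate 1 of the 87 nuclear members passed this test, and among libraries named R alone none did in limma or edgeR (12 at an unadjusted p under 0.05 in limma). In complex I and its assembly factors the departures were 0.87 for Ndufb7, 0.66 for Ndufs3, 0.85 for Ndufaf8 and -1.06 for Ndufaf4. In complex II they were 0.59 for Sdhd, 0.55 for Sdhc and 0.35 for Sdhb, and in complex III 0.81 for Uqcrq, 0.58 for Uqcrh and 0.64 for Uqcrb. In complex IV they were 0.73 for Cox6b1, 0.54 for Cox4i1, 0.54 for Cox8a, 0.38 for Cox7a2, 0.38 for Cox7a2l and 3.19 for Ndufa4l2. In complex V they were 0.67 for Atp5f1d, 0.59 for Atp5mc1, 0.63 for Atp5mc2 and 0.56 for Atp5mc3. In the mitochondrial genome they were 1.21 for chrM:5323-8066, 1.05 for chrM:14131-15347 and -1.16 for chrM:15417-16192.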

How the results depend on the processing

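Of 168 counts of called rows under the planned settings other than leaving out a library, 134 stayed within 1.5 times the count reported and 34 did not. In RM against Sham the nuclear count was 60 with upper quartile scaling, 78 scaled by reads outside the mitochondrial genome, 72 by all reads, 45 with array weights, 2 with the letter covariate and 0 among libraries named R. It was 8 with Sham 1 and Sham 6 as controls and 17 without Sham 3 and Sham 5, and the mitochondrial count was 1, 0, 2 and 5 under the last 4 of these settings. In HS against Sham the nuclear count was 37 among libraries named R and 26 with Sham 1 and Sham 6, and the mitochondrial count 6 with array weights, 4 with DESeq2, 0 with Sham 1 and Sham 6 (1 at an unadjusted p under 0.05) and 1 without Sham 3 and Sham 5. In RM-HS against Sham the nuclear count was 51 by reads outside the mitochondrial genome (mitochondrial 5), 33 by all reads, 7 in a fit of only these groups and 6 with Sham 1 and Sham 6. In RM against HS it was 12 with upper quartile, 1 by reads outside the mitochondrial genome, 1 by all reads, 43 with array weights, 31 with DESeq2 and 0 among libraries named R. There the mitochondrial count was 4 under both read scalings and in a fit of only these groups, and 0 among libraries named R. In RM-HS against HS the nuclear count was 3 under both read scalings and 12 among libraries named R (mitochondrial 1). In RM-HS against RM DESeq2 called 3 nuclear and 1 mitochondrial. The nuclear count there was 0 in limma in a fit of only these groups (23 at an unadjusted p under 0.05), with the letter covariate (4), among libraries named R (1), with Sham 1 and Sham 6 (22) and without Sham 3 and Sham 5 (23).

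On leaving out 1 library, nuclear and mitochondrial counts were 58 to 67 and 2 to 5 in HS against Sham, 23 to 38 and 7 to 8 in RM against Sham, 7 to 16 and 1 to 4 in RM-HS against Sham. They were 7 to 31 and 2 to 4 in RM against HS. In RM-HS against HS they were 32 to 65 and 1 to 4, and in RM-HS against RM 0 to 1 and 0 to 1. Of all 15954 rows, 6647 to 7509 were called in HS against Sham, 7828 to 8537 in RM against Sham and 5051 to 6862 in RM-HS against Sham. Between injured groups 3026 to 4016 rows were called in RM against HS and 2015 to 3547 in RM-HS against HS. For RM-HS against RM the range was 21 to 480.

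Signs reversed for 20 named values. Scaled by reads outside the mitochondrial genome, these were in RM Ndufa1 (-0.037), Sdha (-0.065), Cox7a2 (-0.28) and Sdhb (-0.25), and in RM-HS Atp5f1d (-0.35), Uqcrb (-0.076), Cox6a1 (-0.013), Atp5pb (-0.10), Cox7a2l (-0.34), Ndufa4 (-0.33) and Atp5mc2 (-0.26). Scaled by all reads they were in RM Ndufa1 (-0.021), Sdha (-0.049) and Sdhb (-0.24), and in RM-HS Uqcrb (-0.027), Atp5pb (-0.051) and Cox7a2l (-0.29). In RM, Ndufa4l2 had 0.52 with the letter covariate and 0.73 among libraries named R, and chrM:1342-1448 had -0.088 among libraries named R. The causes were not tested. No paired analysis was possible because the labels give no replicate numbers, and the numbers used here only follow the order of listing. Depth did not limit abundant members, but Cox4i2, Cox6a2, Cox6b2, Cox8b and Ndufa4l2 rest on few reads.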
